A study of Mus musculus with 9 samples.

Results

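The 6 genes Ung, Apex1, Apex2, Msh6, Pms2 and Exo1 encode enzymes that act on DNA after AID, the cytidine deaminase of activated B cells, has turned a cytosine into uracil. They were taken by symbol from the RNA count files, where each matched 1 of 48795 gene IDs, and all 6 had enough counts to be tested. The cells were follicular B cells of the spleen, resting and recirculating cells, selected on CD23 from C57BL/6 mice whose Yy1 gene is floxed in every animal. The tatcre libraries came from cells exposed to TAT-CRE, a Cre recombinase that enters cells and was used to delete Yy1, which encodes the transcription factor YY1. The mock libraries came from cells given a mock treatment, and cultures of both kinds received LPS and IL-4, signals that activate B cells and start class switching. RNA-seq was done on 3 libraries of each kind. In the series text 3 spleens were each divided among untreated, mock and TAT-CRE cells, with 72 hours of culture in 10% serum. The sample text gives 48 hours with 20% serum and lists TAT-CRE for every sample, mock included, so the groups follow the sample titles. Which mouse gave which library is not labelled, and p-values therefore reflect only how these libraries vary. Age and sex of the mice were not given in the sources used here.

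AID acts on switch regions upstream of the antibody constant genes, and its uracils can be processed by either of 2 repair routes. In base excision repair the uracil glycosylase UNG removes the base, and an abasic endonuclease, APE1 (Apex1) or APE2 (Apex2), nicks the strand at the empty site. In mismatch repair a MutS complex that contains MSH6 recognises the U:G mismatch, a MutL complex that contains PMS2 nicks the strand, and the exonuclease EXO1 resects from the nick. Nicks on opposite strands can give the double-strand breaks that class switching joins, while the same lesions can also be repaired without a break.

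The libraries held 22729187 to 28230727 gene counts. Yy1 RNA had 2655, 3018 and 2542 counts in mock and 24, 36 and 50 counts in tatcre libraries, which matches the labels. By the series text the recombinase went to the tatcre cells and not to the mock cells, and exposure to it and loss of Yy1 then cannot be told apart. The summed B cell markers (7 of 7 genes with counts, including Cd79a and Ms4a1) stood at 4280 to 4618 CPM (counts per 1000000 of the TMM-scaled library) in mock and 3545 to 3624 CPM in tatcre libraries, and 4 of the 7 fell. T cell markers summed to at most 0.501 CPM, myeloid markers to at most 2.30 CPM and neutrophil markers to at most 0.12 CPM in any library. Plasma cell markers summed to 121 to 167 CPM in mock and 104 to 121 CPM in tatcre libraries, and endothelial or stromal markers to 38.7 to 49.7 and 36.4 to 41.4 CPM. Within these lists Jchain, listed for plasma cells, and Pecam1, listed for endothelial cells, were called lower (edgeR adjusted p = 0.0295 and 0.0354). Pecam1 ranged from 32.9 to 46.1 CPM over all libraries and made up most of the endothelial or stromal sum. Cdh5, Col1a1 and Col3a1 each reached at most 2.59 CPM. That sum thus follows Pecam1 and says little about the amount of endothelial or stromal cells. Col1a1, a collagen gene of stromal cells, was called higher, from 0.418 ± 0.317 to 1.89 ± 0.608 CPM (edgeR adjusted p = 0.0178). The part of these markers in the results below was not tested. Mock 3 lay apart from the other mock libraries on the first and the next principal component, and its number of genes with counts was the lowest at 20420 (21875 to 23197 in the others). Without it Apex1 and Ung were still called and the other 4 genes were not.

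Across the 6 genes, Apex1 and Ung, both of the uracil route, fell in tatcre cells, and Apex2, Msh6, Pms2 and Exo1 were not called. A gene is called here at an adjusted p under 0.05 in edgeR's quasi-likelihood test with Benjamini-Hochberg adjustment over all 15546 tested genes. The count of 2 falls among 6 genes stands beside 16.3% of all tested genes that fell, and none of the 6 rose where 10.8% of all tested genes did. Among the 7742 tested genes whose mean log2 CPM lay within the range of the 6 genes, 22.5% fell. Group values did not overlap, with tatcre lower, for Apex1 and Ung and for 23.3% of all tested genes. These counts are too small to set the group apart. The median log2 fold change of the 6 was -0.00076 against 0.02 for all tested genes. In bulk RNA, fewer expressing cells and less RNA per cell cannot be told apart.

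**Figure D1:**
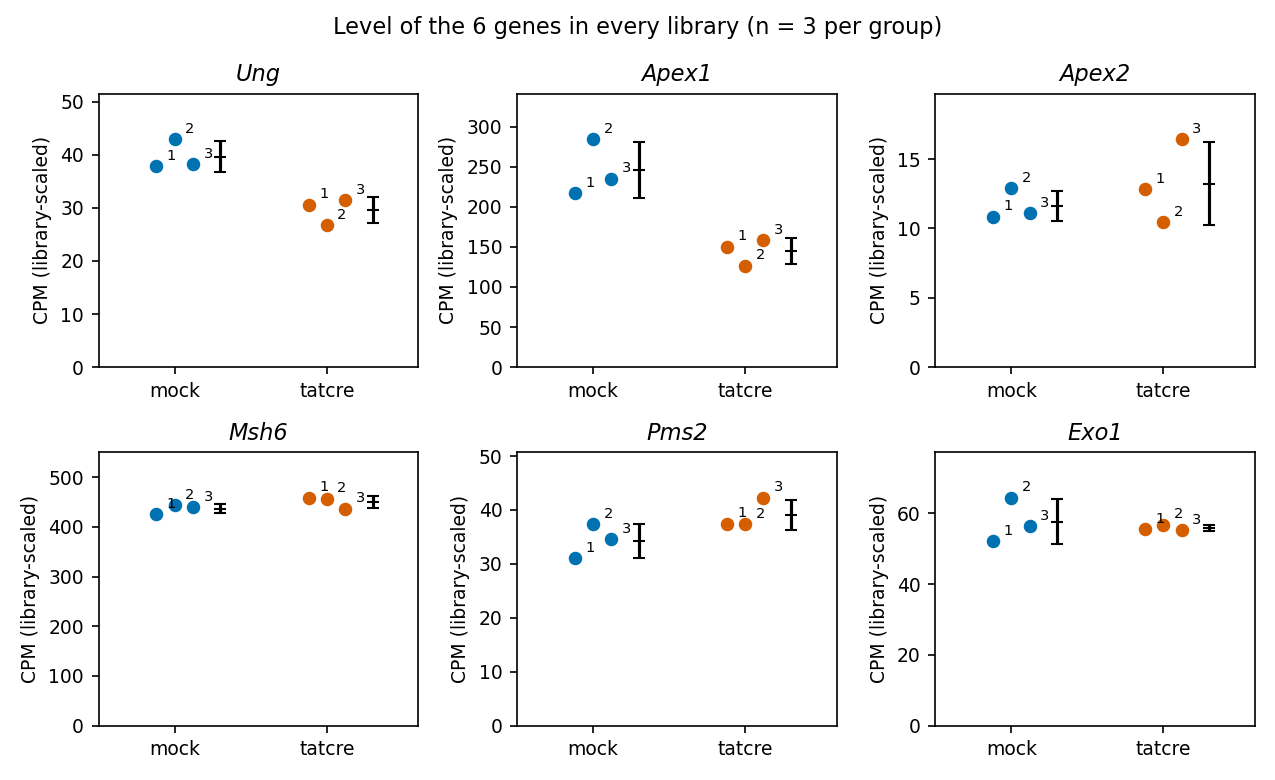
Library-scaled level (CPM) of each of the 6 genes in 3 mock (blue) and 3 tatcre (orange) libraries, with the replicate number beside each point and the mean ± SD in black. Apex1 and Ung have no tatcre library as high as any mock library, while Apex2, Msh6 and Exo1 overlap.

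The promoters of Apex1 and Ung are printed because these genes fell, and that of Msh6 for contrast because its level hardly differed. Sequences are those of RefSeq on GRCm38.p6, from 250 bases before to 50 after the start used in the RefSeq promoter entry, on the gene's strand. For Apex1 and Msh6 that start is the first base of the gene span, and for Ung and Pms2 it lies inside the span. RefSeq promoter entries matched 4 of the 6 genes, Apex1, Ung, Msh6 and Pms2. Capitals mark the E-box CACGTG, the CCAAT box CCAAT and the GC box GGGCGG on either strand.
Apex1, chr14:50924699-50924998, plus strand: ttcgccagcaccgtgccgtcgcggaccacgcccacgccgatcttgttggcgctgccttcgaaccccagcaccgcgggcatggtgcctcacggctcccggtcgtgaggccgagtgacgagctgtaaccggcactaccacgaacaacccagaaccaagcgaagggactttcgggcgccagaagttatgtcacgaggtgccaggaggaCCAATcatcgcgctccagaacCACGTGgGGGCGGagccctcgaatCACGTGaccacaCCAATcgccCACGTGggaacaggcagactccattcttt
Ung, chr5:114130185-114130484, plus strand: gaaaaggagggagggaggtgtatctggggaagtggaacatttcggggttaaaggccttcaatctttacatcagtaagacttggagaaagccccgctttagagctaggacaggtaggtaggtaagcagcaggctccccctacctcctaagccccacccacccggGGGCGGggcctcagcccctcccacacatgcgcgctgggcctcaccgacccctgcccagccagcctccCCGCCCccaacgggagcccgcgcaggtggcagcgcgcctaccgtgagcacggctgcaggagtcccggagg
Msh6, chr17:87974800-87975099, plus strand: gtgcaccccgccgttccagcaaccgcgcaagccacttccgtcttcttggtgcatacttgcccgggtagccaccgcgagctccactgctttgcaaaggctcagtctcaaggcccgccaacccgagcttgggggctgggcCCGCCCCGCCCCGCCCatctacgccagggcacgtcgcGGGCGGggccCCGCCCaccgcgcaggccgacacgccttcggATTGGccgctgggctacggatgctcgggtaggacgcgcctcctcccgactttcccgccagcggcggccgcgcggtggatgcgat

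The Apex1 window held 3 E-boxes, whose first bases lie at -24, 1 and 22 from the start, and also 2 CCAAT boxes and 1 GC box. Of 32851 RefSeq promoter windows of this length, 7.15% held the E-box and 29 windows (0.0883%) held 3 or more. The Ung window held 2 GC boxes and neither of the other motifs, the Msh6 window 5 GC boxes and 1 CCAAT box, and the Pms2 window 3 CCAAT boxes and 2 GC boxes. In the same windows 35.7% held the GC box and 37.4% the CCAAT box. The YY1 motif searched, AANATGGC on both strands, had no match in the 4 windows and was in 6.05% of all windows. In Msh6, 3 GC boxes start at -112, -107 and -102 and overlap by their end bases, and the motifs of Apex1 do not overlap each other. The motifs were chosen after the values were seen, and letter matches in a short window do not show binding. Osgep and Pip4p1 are annotated beside Apex1, and neither was called (edgeR adjusted p = 0.88 and 0.11). The part of the E-boxes in the difference of Apex1 was not tested.

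**Figure D2:**
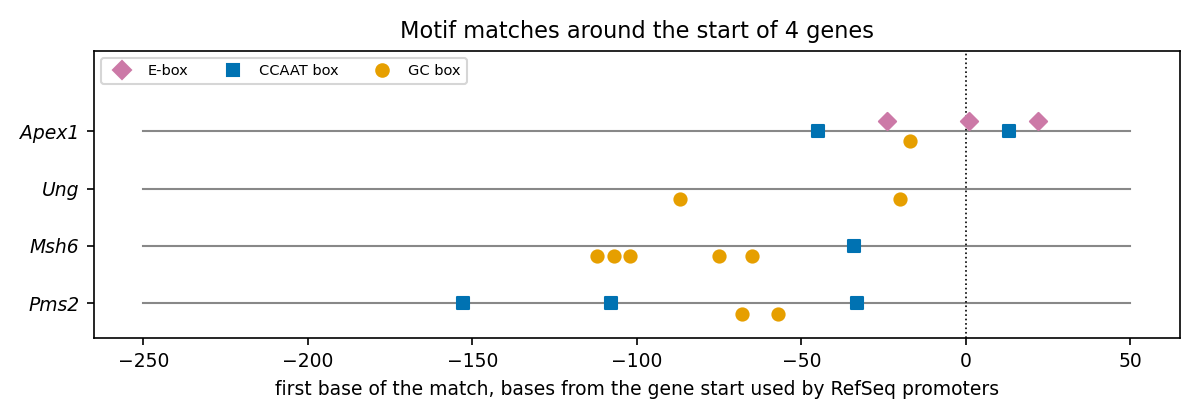
Positions of E-box (diamonds), CCAAT box (squares) and GC box (circles) matches in the promoter windows of Apex1, Ung, Msh6 and Pms2, as the first base of each match in bases from the gene start that the RefSeq promoter entry uses. E-boxes appear in the Apex1 window and in none of the other 3.

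Apex1 showed the largest difference of the 6 genes. It encodes APE1, the main abasic endonuclease of mammalian cells, which also has a redox role (ENSMUSG00000035960, chromosome 14, 50924949 to 50927188 in GRCm38.p6). Its level was 217, 284 and 235 CPM in mock 1 to 3 and 150, 127 and 158 CPM in tatcre 1 to 3. The groups did not overlap, and the highest tatcre library lay well under the lowest mock library. The mean of 245 ± 34.8 CPM became 145 ± 16.5 CPM (SD, n = 3 each), 1.69-fold lower (log2 fold change -0.76, SE 0.11, edgeR adjusted p = 0.000761). Of all tested genes, 6.88% had a log2 fold change as low or lower. No annotated gene overlaps Apex1, and its nearest neighbours were not called. Osgep, a tRNA modification gene, had 18.1 ± 1.25 CPM (mock) against 17.8 ± 0.981 CPM (tatcre; edgeR adjusted p = 0.88), and Pip4p1 had 68.8 ± 1.65 against 60.4 ± 3.96 CPM (edgeR adjusted p = 0.11).

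Ung, the glycosylase that removes the uracil, fell less. Its gene lies on chromosome 5, 114130366 to 114139321 (ENSMUSG00000029591). Its level was 37.8, 42.9 and 38.2 CPM in the mock libraries and 30.6, 26.8 and 31.4 CPM in the tatcre libraries. The groups again did not overlap, and mock 2 was the highest and tatcre 2 the lowest, the same libraries as for Apex1. The mean of 39.7 ± 2.85 CPM became 29.6 ± 2.47 CPM, 1.34-fold lower (log2 fold change -0.42, SE 0.10, edgeR adjusted p = 0.00904). This size was common, since 16.1% of tested genes had a log2 fold change as low or lower. Counts per gene do not separate the nuclear from the mitochondrial form of UNG. Ung overlaps Alkbh2, a DNA demethylase gene that rose from 4.46 ± 0.583 to 6.45 ± 0.0235 CPM (edgeR adjusted p = 0.035), and without a stated strand setting reads from the overlap cannot be told apart.

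Apex2 encodes APE2, a weaker abasic endonuclease with exonuclease activity (ENSMUSG00000025269, chromosome X, 150426974 to 150588206). Its level was 10.8, 12.9 and 11.1 CPM in mock and 12.8, 10.4 and 16.4 CPM in tatcre libraries. The groups overlapped, with tatcre 3 above every other library and tatcre 2 below all of them. The log2 fold change was 0.19 with a 95% interval of -0.17 to 0.55 (edgeR adjusted p = 0.42), and without tatcre 3 it was -0.0050. The RefSeq span of Apex2 overlaps Tmem29, Pfkfb1 and Alas2, among others. Alas2 had at most 1 count in any library, while Tmem29 (43.1 ± 5.27 CPM mock, 49.1 ± 3.59 CPM tatcre) and Pfkfb1 had counts of their own and were not called.

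The mismatch genes gave no call. Msh6, the mismatch-binding partner in MutS alpha (ENSMUSG00000005370, chromosome 17, 87975050 to 87990892), stood at 426, 444 and 440 CPM in mock and 459, 457 and 436 CPM in tatcre libraries. These values overlapped and varied little within each group. Its log2 fold change was 0.04 with a 95% interval of -0.10 to 0.19 (edgeR adjusted p = 0.65), the narrowest interval of the 6 genes. Fbxo11, a ubiquitin ligase gene whose span overlaps that of Msh6, rose from 309 ± 20 to 388 ± 14.6 CPM (edgeR adjusted p = 0.00811), so reads from the overlap carry that uncertainty.

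Pms2, the endonuclease subunit of MutL alpha (ENSMUSG00000079109, chromosome 5, 143909901 to 143972745), had 31, 37.3 and 34.6 CPM in mock and 37.5, 37.4 and 42.3 CPM in tatcre libraries. All tatcre libraries lay above all mock libraries, but mock 2 was almost level with tatcre 1 and tatcre 2. A lack of overlap in either direction was seen for 44% of all tested genes. The log2 fold change was 0.19 with a 95% interval of -0.03 to 0.41, and the difference was not called (edgeR adjusted p = 0.19). With library size alone in place of TMM scaling it was called higher (log2 fold change 0.29, edgeR adjusted p = 0.035). That scaling moves the median of all genes by 0.10 on the log2 scale, and relative to that median Pms2 stood at 0.16. Aimp2, a gene annotated beside Pms2, was not called (182 ± 26.9 CPM mock, 157 ± 25.4 CPM tatcre, edgeR adjusted p = 0.24).

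Exo1, the exonuclease of the route and also a DNA replication and recombination enzyme (ENSMUSG00000039748, chromosome 1, 175880768 to 175911396), stood at 52.1, 64.4 and 56.5 CPM in mock and 55.5, 56.8 and 55.2 CPM in tatcre libraries. The tatcre values lay inside the mock range. The log2 fold change was -0.05 with a 95% interval of -0.25 to 0.16 (edgeR adjusted p = 0.74). Its sign turned with upper-quartile factors, with library size alone (0.06) and without mock 2 (0.03), so no direction is given. For the 4 genes that were not called, the test does not show equal levels. Their intervals reach 0.55 for Apex2 and 0.41 for Pms2 on the log2 scale, but 0.19 for Msh6 and 0.16 for Exo1.

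**Figure D3:**
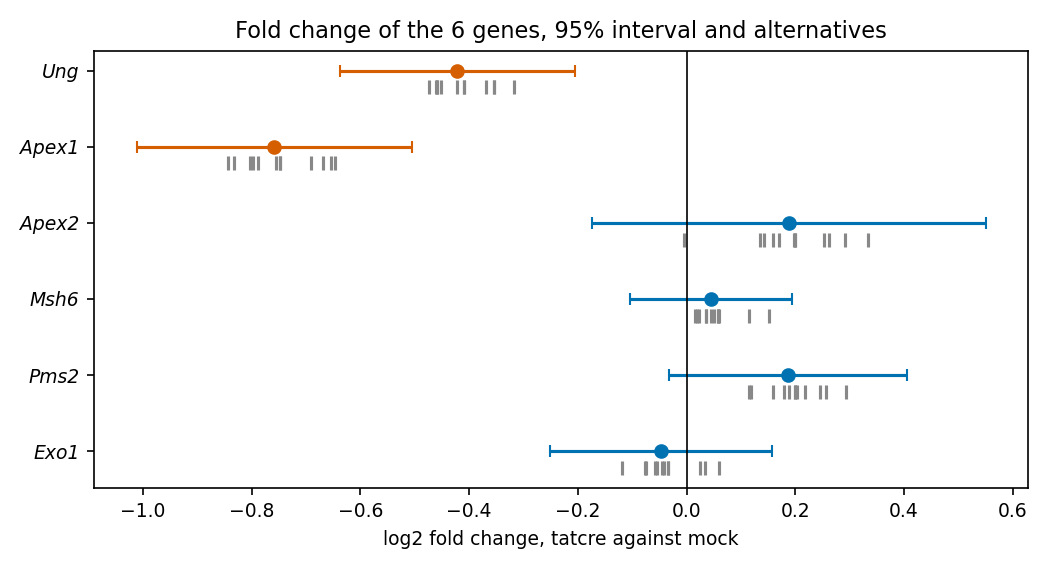
Log2 fold change of tatcre against mock with its 95% interval (points and bars; orange for genes called lower, blue for genes not called) and, as grey ticks under each, the values under the 12 other settings. All ticks of Apex1 and Ung lie below 0, while those of Apex2 and Exo1 fall on both sides.

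APE1 and APE2 act on the same kind of site, and the balance of their genes was examined as a ratio of counts within each library, which does not depend on library scaling. Only the change of such a ratio is read here, since gene lengths also set its level. The Apex2 to Apex1 ratio was 0.0501, 0.0454 and 0.0474 in mock and 0.0855, 0.0826 and 0.104 in tatcre libraries. Every tatcre library was higher, on average 1.9-fold (difference of 0.92 on the log2 scale). The exact two-sided permutation test gave p = 0.1, the smallest value that 3 against 3 libraries allow, and 0.3 after adjustment over the 6 ratios computed. No ratio could pass the threshold in this design. The Ung to Apex1 ratio was 0.174, 0.151 and 0.163 in mock and 0.204, 0.212 and 0.199 in tatcre libraries, again without overlap (1.26-fold, exact permutation p = 0.1, adjusted 0.3). Both ratios divide by Apex1, so they largely restate its fall and are not separate results.

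The remaining ratios overlapped between the groups. Msh6 to Msh3, the alternative MutS partners, had a mean log2 ratio of 2.85 ± 0.0502 in mock and 2.98 ± 0.101 in tatcre libraries (exact permutation p = 0.2, adjusted 0.3). For Ung to Smug1, a second uracil glycosylase expressed at only 1.87 ± 0.117 CPM in mock cells, the counts ratio was 19.1, 24.4 and 19.7 in mock and 19.4, 11 and 12.2 in tatcre libraries. Here tatcre 1 lay among the mock libraries and the other tatcre libraries lay below them (exact permutation p = 0.2, adjusted 0.3). Exo1 to Msh6 and Pms2 to Msh6 differed by -0.09 and 0.14 on the log2 scale (exact permutation p = 0.4 and 0.3, adjusted 0.4 and 0.36).

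**Figure D4:**
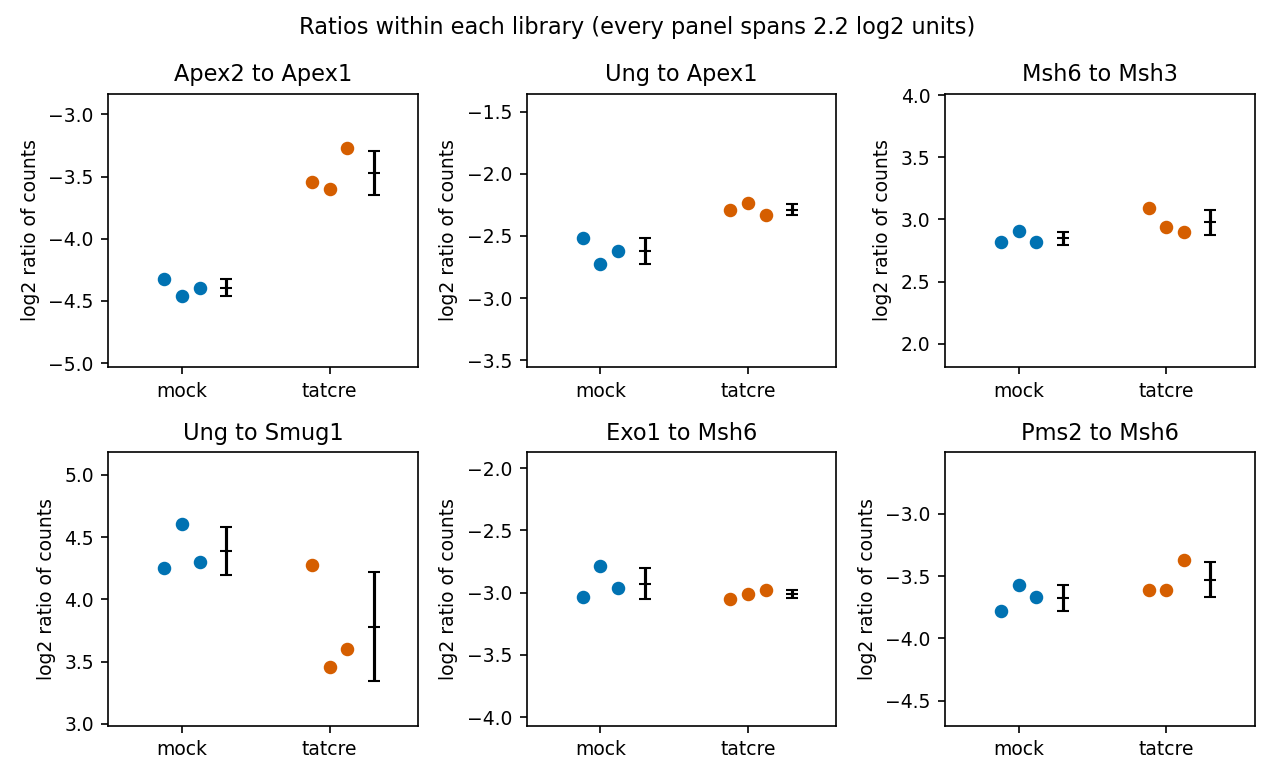
Log2 ratio of counts of 2 genes within each of 3 mock (blue) and 3 tatcre (orange) libraries, with mean ± SD in black and the same vertical span in every panel. The Apex2 to Apex1 and Ung to Apex1 panels have no overlap between the groups, and the other 4 do.

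To place the 6 genes in their pathways, 10 lists holding 113 other genes were described, of which 109 could be tested. The calls were 21 falls and 13 rises, and 75 genes were not called, with a median log2 fold change of -0.03. The falls were 19.3% and the rises 11.9% of the tested list genes, near the 16.3% and 10.8% of all tested genes, so the lists as a whole do not stand apart from other genes and their counts are descriptions. In the base excision route after the abasic site, 4 of 12 genes fell and none rose (median -0.13). The falls were 33.3% of this list beside 16.3% of all tested genes, and 10.8% of all tested genes rose. Polb, the polymerase that fills the gap APE1 leaves, fell the most among all tested genes of these lists, with 53.4, 55.7 and 53.2 CPM in mock and 22.7, 18.5 and 20.5 CPM in tatcre libraries (log2 fold change -1.40, SE 0.10, edgeR adjusted p = 4.96e-06). The groups were far apart and each was tight, though the span of Polb overlaps A930013F10Rik. Parp2, a poly(ADP-ribose) polymerase that senses strand breaks, fell from 160 ± 9.66 to 92.2 ± 3.76 CPM (edgeR adjusted p = 5.57e-05). Tdp1, which cleans 3' ends, fell from 50.2 ± 2.49 to 30.9 ± 0.843 CPM (edgeR adjusted p = 0.000168), and the fourth to fall was the end-processing factor gene Aplf. By contrast Lig1, Lig3, Parp1 and Xrcc1 were not called.

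None of the other glycosylases tested was called lower. Of 3 further uracil glycosylases 1 rose, and of 6 tested glycosylases for other bases 1 rose, with medians of 0.22 and 0.15. Among all tested genes 10.8% rose and 16.3% fell, and counts from lists this small are descriptions. Mbd4, a glycosylase for uracil and thymine opposite guanine, had 57.4, 45.9 and 56 CPM in mock and 69.7, 79.5 and 68.3 CPM in tatcre libraries (log2 fold change 0.45, SE 0.10, edgeR adjusted p = 0.00901). Its groups did not overlap, and its span overlaps Ift122. Neil3, which acts on oxidised bases, rose from 47.5 ± 4.55 to 70.4 ± 8.91 CPM (edgeR adjusted p = 0.00315). Smug1 (log2 fold change 0.22, edgeR adjusted p = 0.63) and Tdg (0.11, edgeR adjusted p = 0.51) were not called.

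Among 4 tested MutS and MutL relatives of Msh6 and Pms2, 2 rose and none fell (median 0.25). Beside them, 10.8% of all tested genes rose and 16.3% fell, and 4 genes are too few to set the list apart. Msh5, a MutS homolog known from meiosis, rose from 3.14 ± 0.472 to 9.84 ± 1.15 CPM, a low level (log2 fold change 1.65, edgeR adjusted p = 7.01e-05). Its span overlaps Gm52318, so its counts are less certain. Pms1, the MutL relative whose role in repair is less clear, rose from 58.6 ± 3.99 to 70.7 ± 1.18 CPM (edgeR adjusted p = 0.0307). This call was lost when any single library other than mock 3 was left out (edgeR adjusted p from 0.0565 to 0.118). No call was made for Msh3, whose span overlaps Gm20379, among others, so that its counts are less certain (60.6 ± 1.6 CPM mock, 57.3 ± 3.07 CPM tatcre, edgeR adjusted p = 0.47).

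In the excision and resynthesis steps shared with replication, 4 of 14 genes fell and none rose (median -0.20). Falls made up 28.6% of this list beside 16.3% of all tested genes, and 10.8% of all tested genes rose. Pold4 and Pold3, subunits of DNA polymerase delta, fell from 71.6 ± 11.5 to 47.6 ± 4.51 CPM and from 154 ± 2.63 to 124 ± 6.36 CPM (edgeR adjusted p = 0.00425 and 0.0102). Rfc2, a subunit of the clamp loader, fell from 118 ± 7.02 to 89.2 ± 1.84 CPM (edgeR adjusted p = 0.00349), and Rpa1 was the other gene to fall, a call lost without mock 2 or tatcre 1 (edgeR adjusted p = 0.0637 and 0.0777). The sliding clamp gene Pcna was not called at 223 ± 30.5 and 200 ± 33.9 CPM. Of 9 tested nucleases of the EXO1 family and of end resection, 2 rose and 1 fell (median 0.10). These were 22.2% and 11.1% of the list, beside 10.8% and 16.3% of all tested genes. Ercc5, a nuclease of the same family as EXO1 that acts in nucleotide excision repair, rose from 31.2 ± 3.06 to 55.9 ± 2.45 CPM (edgeR adjusted p = 0.000113), and Nbn, of the MRN complex, fell from 87.4 ± 3.14 to 67.1 ± 1.5 CPM (edgeR adjusted p = 0.00379). Dna2, a resection nuclease, rose from 56.2 ± 6.3 to 73.2 ± 6.75 CPM (edgeR adjusted p = 0.0199), a call lost without mock 1 or tatcre 2 (edgeR adjusted p = 0.0683 and 0.0536).

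Translesion synthesis, which copies past abasic sites and gives mutations at AID targets, held more rises than falls. Of 14 genes 5 rose and 1 fell (median 0.19), 35.7% and 7.14% of the list beside 10.8% and 16.3% of all tested genes. The list is small, and its count is a description. Polk and Poli, Y-family polymerases, rose from 60.1 ± 2.55 to 89.2 ± 6.48 CPM and from 36.5 ± 2.46 to 50.1 ± 2.65 CPM (edgeR adjusted p = 0.000708 and 0.00345). Hltf, a ubiquitin ligase for PCNA, had 211, 208 and 271 CPM in mock and 326, 407 and 304 CPM in tatcre libraries (edgeR adjusted p = 0.00639). The others to rise were Rev1 and Ube2b, the latter a call lost without mock 2 or tatcre 1 (edgeR adjusted p = 0.0705 and 0.0831). Mad2l2 fell, a call lost without mock 1, tatcre 1 or tatcre 2 (edgeR adjusted p = 0.0680, 0.0601 and 0.0506). Polh, the polymerase known for mutation at A:T pairs in antibody genes, was not called at 27.5 ± 2.8 and 30.6 ± 1.02 CPM (edgeR adjusted p = 0.28).

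Among genes of the deoxyuridine and nucleotide pool 2 of 11 fell and none rose (median -0.08). The falls were 18.2% of the list, near the 16.3% of all tested genes, of which 10.8% rose. Dut, the dUTPase that keeps uracil out of replicating DNA, had 96.8, 125 and 108 CPM in mock and 70.2, 66.4 and 73.2 CPM in tatcre libraries (log2 fold change -0.65, edgeR adjusted p = 0.000837), without overlap. Tk1, a thymidine kinase, fell from 26.8 ± 0.901 to 16.4 ± 0.497 CPM (edgeR adjusted p = 0.000337), and its span overlaps Afmid. Of 22 genes for proteins reported to bind, target or stabilise AID, 4 fell and 1 rose (median -0.13), 18.2% and 4.55% of the list beside 16.3% and 10.8% of all tested genes. The chaperone gene Hsp90ab1, which has near-identical copies in the genome and so uncertain counts, fell from 9578 ± 467 to 6229 ± 737 CPM (edgeR adjusted p = 0.000375). Exosc3, of the RNA exosome, fell from 115 ± 7.8 to 90.3 ± 3.95 CPM (edgeR adjusted p = 0.00881). Hnrnpk, an RNA-binding protein, fell from 547 ± 19 to 447 ± 8.77 CPM (edgeR adjusted p = 0.00893), a call lost without tatcre 1 (edgeR adjusted p = 0.0531), and the elongation factor gene Paf1 also fell. The single rise, Ywhab, was lost when any single library other than tatcre 2 was left out (edgeR adjusted p from 0.0581 to 0.152).

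Several of these genes follow the cell cycle, so S phase and proliferation genes were set beside them. Of 15 such genes 5 fell and 1 rose (median -0.21), 33.3% and 6.67% of the list beside 16.3% and 10.8% of all tested genes. This list is small and its count is a description. Without tatcre 1 only 2 of its genes fell, and without mock 2 it was 3. The gene that rose was the cyclin gene Ccne2, and no gene of the list rose when mock 1 or any single tatcre library was left out. Mcm5, a subunit of the replicative helicase, fell from 357 ± 27.1 to 179 ± 17.8 CPM (edgeR adjusted p = 3.42e-05). Mcm3 fell from 639 ± 31.3 to 507 ± 38.5 CPM (edgeR adjusted p = 0.00955) and Mcm6 from 537 ± 16.3 to 450 ± 10.9 CPM (edgeR adjusted p = 0.0166, and 0.0633 without tatcre 1). Mki67 and Top2a, markers of cycling cells, were not called and stood at 2156 ± 76 and 925 ± 19.1 CPM in mock against 2341 ± 86.7 and 981 ± 31.4 CPM in tatcre libraries. The summed level of the 15 genes was 5982 to 6433 CPM in mock and 5901 to 6205 CPM in tatcre libraries, ranges that overlap. Mki67 and Top2a carry much of that sum, so it says little about the helicase genes that fell. The part of these genes in the differences of Apex1 and Ung was not tested.

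**Figure D5:**
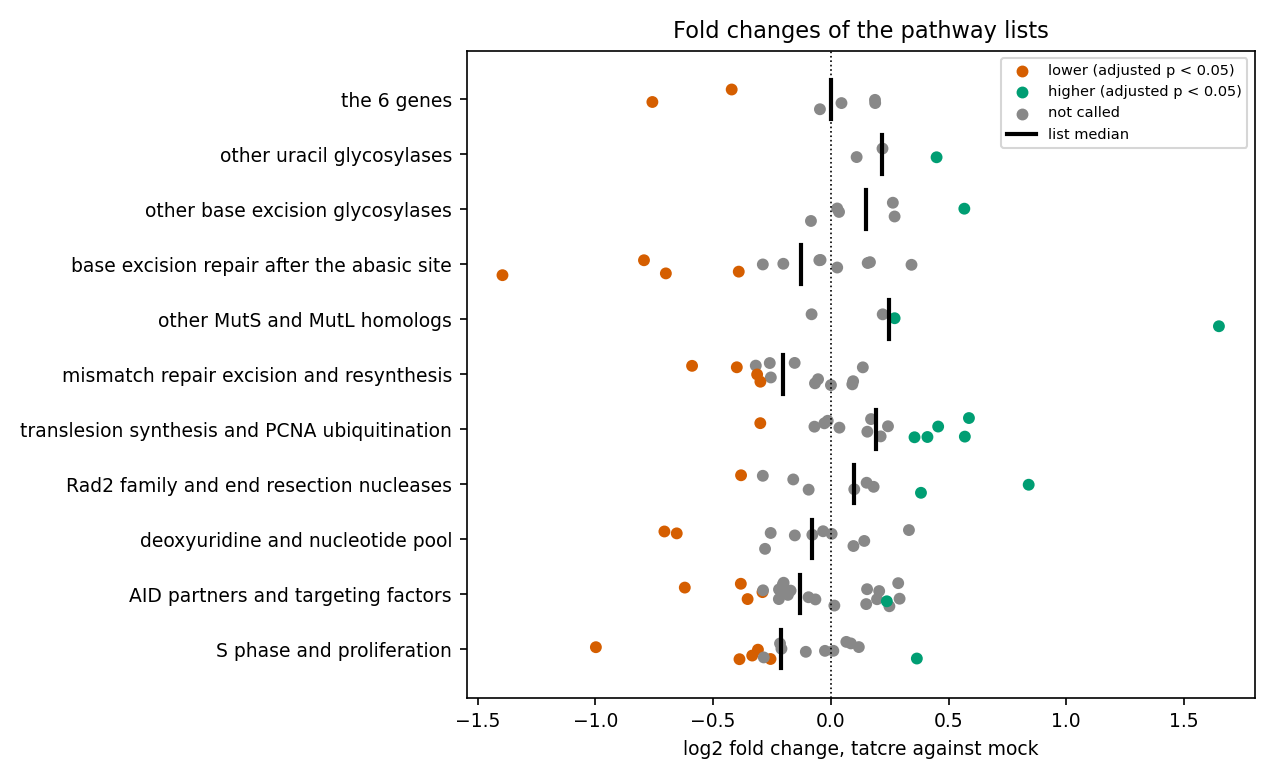
Log2 fold change (tatcre against mock) of every tested gene in the 6-gene group and the 10 pathway lists, coloured by call (orange lower, green higher, grey not called), with the list median as a black bar; a gene in 2 lists appears in both. Polb is the lowest and Msh5 the highest point.

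The genes whose levels ran most like each of the 6 over the 6 libraries were found by the root mean square difference of log2 CPM, each gene centred on its own mean, among 9232 tested genes that carry an established symbol and average at least 2 on the log2 CPM scale. Myc lay closest to Apex1 (difference 0.03), followed by Tuba4a (0.05), with log2 fold changes of -0.76 and -0.73. Kat5 and Ipo9 lay closest to Ung (0.014 and 0.021), with log2 fold changes of -0.41 and -0.42. For Apex2 they were Pom121 and Slc35c1, for Msh6 Psma1 and Minos1, for Pms2 Ddx47 and Baz1b, and for Exo1 Wdr75 and Nup37, at differences of 0.016 to 0.054. Likeness over 6 libraries that fall into 2 groups is a description only.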

How the data were processed

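RNA-seq counts of 3 mock and 3 tatcre libraries were used. The authors deposited raw counts per Ensembl gene ID, 1 file per library. The submitters' processing notes name Trimmomatic, TopHat2, SAMtools, HTSeq and MACS2 with build mm10 and no versions. A stranded RNA kit was used per the labels' protocols, but the strand setting, the annotation and the treatment of ambiguous reads were not given in the sources used here, so reads in overlapping genes may be dropped or assigned to either gene. Besides the overlaps named above, the spans of Neil3, Pold4, Poli and Hnrnpk also overlap other annotated genes. The YY1 peak lists were not used, since positions on chromosome 1 run beyond the GRCm38 annotation, which leaves their build uncertain.

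Symbols were matched for 48349 of 48795 IDs. In R 4.3.3, edgeR 4.0.16 was used to keep genes (filterByExpr, at least 10 counts and 15 in total), to scale libraries by TMM and to run the quasi-likelihood test, with p-values adjusted by Benjamini-Hochberg and called under 0.05. The common biological coefficient of variation was 0.129. Fold changes come from the fit. CPM is counts per 1000000 of the TMM-scaled library, and 3 counts correspond to 0.111 to 0.128 CPM, a limit that covers counting error only. Ratios used counts plus 0.5 and an exact permutation test. No 2 libraries agreed within sampling noise (chi-square per degree of freedom at least 7.5). The test was checked on simulated counts. The planted changes were larger than those of Apex1 and Ung, so the check does not cover changes of that size.

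The 6 genes and the lists were chosen with earlier results of these data known. The text names the 6 genes, Yy1, the 3 called genes of smallest adjusted p per list, Msh3 and Smug1, and the 2 genes most like each of the 6. Other genes were named after their values were seen. AID and some further genes of these routes are not reported here. Alternatives were RLE and upper-quartile factors, library size alone, no count filter, DESeq2 (1.42.0), a replicate block and each library left out.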

Additional observations from a re-analysis of the deposited data

How the results depend on the processing

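The falls of Apex1 and Ung held under all 12 alternatives, with log2 fold changes from -0.84 to -0.65 and from -0.47 to -0.32 and edgeR or DESeq2 adjusted p at most 0.00481 and 0.0391, and Yy1 stayed between -6.43 and -5.93. Exo1 changed sign with upper-quartile factors (0.024), library size alone (0.060) and without mock 2 (0.034, leave-one-out range -0.119 to 0.034). Apex2 changed sign without tatcre 3 (range -0.0050 to 0.33). With library size alone Pms2 was called (0.29), which gave 1 of the 6 genes higher, and 2614 genes and 32 list genes rose in place of 1679 and 13. Upper-quartile factors gave 26 list genes higher. Leaving out single libraries gave 998 to 1681 genes higher, the lowest without mock 2 (998) and tatcre 1 (1002). Falls were 60.2% of all calls as reported, 48.5% with upper-quartile factors and 42% with library size alone. List counts were small and several moved over 1.5 times: falls of the S phase list were 2 to 5, of the EXO1 family list 1 to 2 and of the translesion list 0 to 1. Rises were 1 to 3 for MutS and MutL relatives, 1 to 4 for the EXO1 family, 0 to 7 for AID partners (1 as reported) and 0 to 4 for S phase genes. They were 1 to 2 for the other glycosylases, 0 to 2 for the nucleotide pool and 0 to 1 for the base excision and resynthesis lists. The cause of these changes was not tested. Msh3 changed sign with library size alone (0.0235).

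Equal replicate numbers did not clearly deviate together (correlations 0.06, -0.03 and 0.23), and 3 of 6 libraries correlated best with their own number. With the replicate block, 2108 genes fell and 1313 rose, Apex1 and Ung stayed lower (-0.75 and -0.42, edgeR adjusted p = 0.00481 and 0.0329), and 18 list genes fell and 11 rose in place of 21 and 13. The calls lost include that of Pms1 (edgeR adjusted p = 0.0763), the single translesion fall and the single AID partner rise. The exact sign-flip test of the ratios could not go below 0.25. Depth limits only the low genes, such as Smug1 at under 3 CPM in every library.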
